A study of Mus musculus with 6 samples.

Results

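The mitochondrial carriers are the transporters of the Slc25 family and the uncoupling proteins, and 50 of them were found by name among the 20138 genes of the study's table. Members were every gene whose symbol begins with Slc25a and a number, with Ucp1, Ucp2 and Ucp3 added. Kidney RNA was sequenced from 6 mice at postnatal day 35, in 2 genotypes of 3 animals each. The first genotype, Pkd2-KO here, carried Pkhd1Cre with Pkd2 F/F. The second, Pkd2-miR-214-KO, carried the same alleles together with miR-214null. Both genotypes therefore lack Pkd2, the gene of the cation channel polycystin-2, wherever the Pkhd1 promoter drives Cre, which is mainly in tubule cells, and no animal with intact Pkd2 entered the comparison. Whole kidneys were used, so fewer cells of a type and less RNA per cell cannot be told apart. The comparison shows how carrier transcripts differed when miR-214 was also missing from a polycystic kidney.

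Mitochondrial carriers sit in the inner mitochondrial membrane, which is otherwise closed to most metabolites, and move nucleotides, phosphate, organic acids, amino acids and cofactors between the cytosol and the matrix. Each is built from repeats of a membrane module and usually exchanges one substrate for another. The kidney tubule depends on them heavily, because its sodium pumps run on ATP made in mitochondria and exported by the ADP/ATP carriers. Uncoupling protein 1 is the exception in purpose: it lets protons leak back in brown fat and so releases heat.

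For each gene the table gives the authors' fitted fold and test over the 6 libraries. Single libraries were not analysed here, their depth is unknown, and no mean, SD or overlap of the groups can be given. A positive log2 fold stands for a higher level in Pkd2-miR-214-KO, as read from the deleted gene Mir214, given at -7.62 ± 1.08 in the authors' deposited table. The value after ± is an approximate standard error (SE), taken as the fold's size over the root of the likelihood ratio, and intervals are approximate 95% intervals from it. Pkd2, deleted in both genotypes, stood at -0.11 ± 0.23 in the authors' deposited table. For Xist, the RNA expressed from the inactive X chromosome of females, that table gives 10.21 ± 2.36 (adjusted p = 0.0168), and the sex of the animals is not given in the labels.

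The carriers as a family lay close to no difference between the genotypes. Of the 50 members 3 had an unadjusted p under 0.05 in the authors' edgeR likelihood ratio test, and all 3 were higher in Pkd2-miR-214-KO: Slc25a25, Slc25a47 and Slc25a48. That is 6% of the members, beside 3.10% of all genes called higher in the same way. No member was called lower, beside 1.71% of all genes, and 4.82% of all genes were called in either direction. After Benjamini-Hochberg adjustment over all genes 0 of the 50 members passed 0.05, beside 0.124% of all genes, and the adjusted p was 1 for 47 of them. Under a stricter tail that allows for the 3 animals per genotype (a t distribution on 4 degrees of freedom), 0 members had an unadjusted p under 0.05. The share of all genes under that tail was not counted, so this 0 is a description only.

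Across the family 29 log2 folds were positive and 21 negative in the authors' deposited table. The median was 0.03, and the median of all 20138 genes was 0. Most of the carriers were measured closely enough to bound the difference: for 36 of the 50 (72.0%) the approximate 95% interval lay inside a doubling and a halving, beside 57.5% of all genes. Among the 38 members with a mean of at least 3 log2 CPM, a count scaled to the library's total, 34 (89.5%) were bounded in this way, beside 91.3% of all genes at that level. A bounded interval limits the size of a difference and does not show that there was none.

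**Figure D1:**
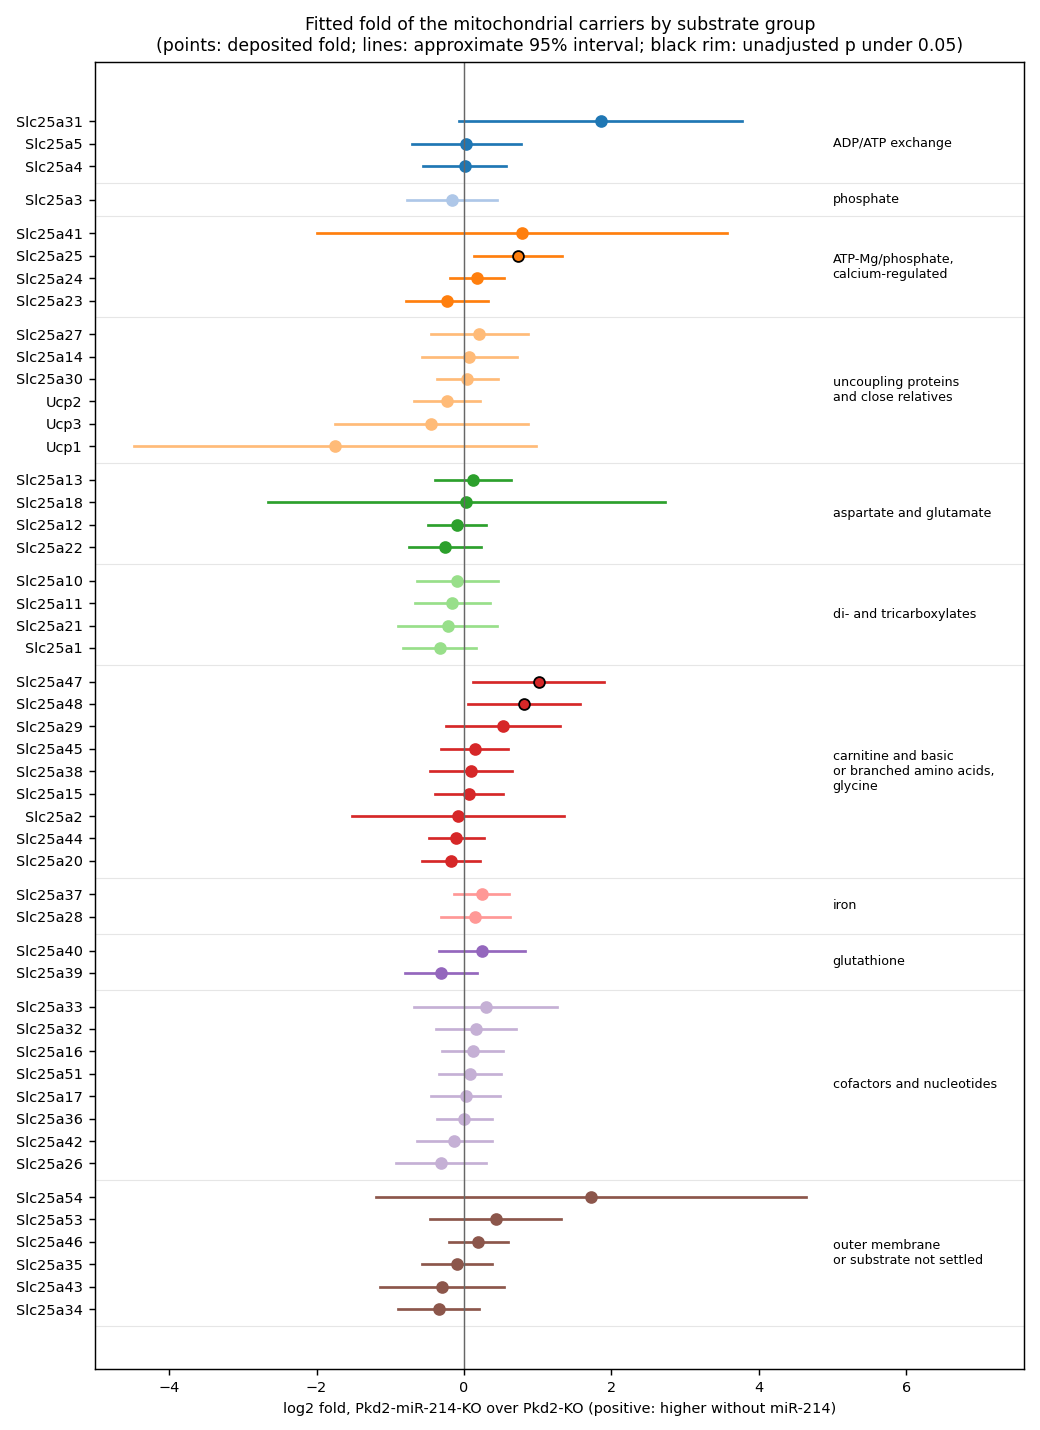
Log2 fold of 49 of the 50 carriers (x axis, Pkd2-miR-214-KO over Pkd2-KO; points are the authors' deposited folds, lines approximate 95% intervals), grouped on the y axis by transported substrate. The points with a black rim, Slc25a25, Slc25a47 and Slc25a48, are the 3 with an unadjusted p under 0.05, and the widest intervals among the others belong to Ucp1 and to members of very low level.

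Among the carriers that export ATP and bring in phosphate, the 3 abundant ones had folds near 0. Slc25a4 and Slc25a5 exchange matrix ATP for cytosolic ADP, and Slc25a3 imports the phosphate that ATP synthase needs. Slc25a5 stood at 0.03 ± 0.38 in the authors' deposited table (interval -0.71 to 0.77) at a mean log2 CPM of 9.84, the highest of the family. Slc25a4, the form typical of heart and muscle, had 0.01 ± 0.29 (interval -0.55 to 0.57) at 8.67 in the authors' deposited table. The phosphate carrier Slc25a3 had -0.16 ± 0.31 (interval -0.77 to 0.45) at 9.13 in that table. Slc25a31, the ADP/ATP carrier of male germ cells, had the largest positive fold of the members, 1.85 ± 0.98 (unadjusted p = 0.0591). Its mean log2 CPM was only -3.34, a level at which the fitted fold depends on the prior count.

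Slc25a25 had the smallest p of the family. It is one of the calcium-regulated carriers that exchange ATP-Mg for phosphate and so set the total adenine nucleotide content of the matrix, and it lies on chromosome 2 from 32414487 to 32451445 on the minus strand. In the authors' deposited table it stood at 0.73 ± 0.31 on the log2 scale, a 1.66-fold higher level with an interval of 1.10 to 2.52 (unadjusted p = 0.0169, adjusted p = 0.737), with 6.75 as its mean log2 CPM. In order of p it stood at place 462 of the 20138 genes. The other carriers of this group were Slc25a24 (0.17 ± 0.19), Slc25a23 (-0.23 ± 0.28) and Slc25a41 (0.79 ± 1.42, mean log2 CPM -3.99) in the authors' deposited table. With 3 of the 4 folds positive the group's median was 0.45, and the closely measured Slc25a24 and Slc25a23 had opposite signs. Exons of Slc25a25 overlap those of Naif1 on the opposite strand over 379 of 4120 bases, and whether the counting used strand is not given in the sources used here.

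Slc25a47 and Slc25a48 were the other 2 members with an unadjusted p under 0.05. Both are relatives of the carnitine and basic amino acid carriers; Slc25a47 is best known from liver, and Slc25a48 has been linked to choline import. Slc25a47, on chromosome 12 from 108836046 to 108856815, stood at 1.01 ± 0.45 on the log2 scale in the authors' deposited table, 2.02-fold with an interval of 1.09 to 3.74 (unadjusted p = 0.0252, adjusted p = 0.841), with a mean log2 CPM of 1.67. Slc25a48, on chromosome 13 from 56438355 to 56474239, had 0.82 ± 0.39 in the authors' deposited table, 1.76-fold with an interval of 1.04 to 2.98 (unadjusted p = 0.0351, adjusted p = 0.926), at 3.68. Neither has exons that overlap another annotated gene.

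The rest of that substrate group lay closer to 0. Slc25a29, a carrier of basic amino acids, had 0.53 ± 0.39 (unadjusted p = 0.179) in the authors' deposited table, and it is the direct neighbour of Slc25a47, with 162 bases between the divergent annotated genes. Slc25a20, which carries acylcarnitines in for fatty acid oxidation, had -0.18 ± 0.20 (interval -0.57 to 0.21) there. Slc25a15, the ornithine carrier of the urea cycle, had 0.07 ± 0.24, Slc25a44, which imports branched-chain amino acids, -0.10 ± 0.19, and Slc25a45 0.15 ± 0.23 in the authors' deposited table. Slc25a2, a second ornithine carrier, was at a mean log2 CPM of -2.43 with a fold of -0.08 ± 0.73. Of the 9 members of the group 6 had positive folds and 3 negative, with a median of 0.10.

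Several liver genes had far larger folds than Slc25a47 in the same libraries. Of 8 liver markers, 5 had an unadjusted p under 0.05, beside 3.10% of all genes called higher. All 8 were positive, and the median of their deposited log2 folds was 3.68. Among them Alb, the gene of serum albumin, had 6.64 ± 2.05, Apoa1, the main apolipoprotein of high-density lipoprotein, 5.92 ± 1.63, and Cps1, the first enzyme of the urea cycle, 4.42 ± 1.56, all from the authors' deposited table. Fgb had 1.17 ± 0.69, while Ttr (0.35 ± 0.38) and Serpina1a (0.19 ± 0.34) had smaller folds than Slc25a47. The SE of the 8 liver markers lay between the 95.2 and 99.96 percentile among genes at a similar level, while that of Slc25a47 lay at the 65.0 percentile. The part of liver RNA in the fold of Slc25a47 was not tested.

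The uncoupling proteins held the largest negative fold. Ucp1 stood at -1.75 on the log2 scale in the authors' deposited table, 3.36-fold lower, but with an SE of 1.39 and an interval of -4.48 to 0.98 (unadjusted p = 0.208). Its SE was larger than that of 99.9% of the 2938 genes with a mean log2 CPM within 0.5 of its own, 5.38. Ucp2, which is widely expressed and abundant in immune cells, had -0.23 ± 0.23 (interval -0.68 to 0.21) there, with a mean log2 CPM of 8.05. Ucp3, the muscle form, had -0.44 ± 0.67 at 1.18 in the authors' deposited table. Their relatives Slc25a14 (0.07 ± 0.33), Slc25a27 (0.20 ± 0.34) and Slc25a30 (0.04 ± 0.21) were positive and near 0 there, and the median of all 6 was -0.10.

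Fat genes resembled Ucp1 in sign and in width of error. Of 7 adipose markers 6 were negative, and the median log2 fold was -0.79. Among the 7, 0 had an unadjusted p under 0.05 in the authors' test, beside 1.71% of all genes called lower and 4.82% in either direction. Cidea, a lipid droplet protein typical of brown fat, had -1.64 ± 1.47 in the authors' deposited table at a mean log2 CPM of 4.64, close to Ucp1 in both values. Dio2, the deiodinase that activates thyroid hormone in brown fat, had -1.13 ± 0.79, Plin1, the perilipin of fat droplets, -0.79 ± 1.34, and Adipoq, the fat hormone adiponectin, -0.15 ± 1.24 in that table. Elovl3, another gene of brown fat, was at a mean log2 CPM of -2.06 with a fold of 0.02 ± 1.77. The SE of these markers lay between the 96.5 and 99.9 percentile among genes at a similar level. The part of fat tissue in the value of Ucp1 was not tested.

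**Figure D2:**
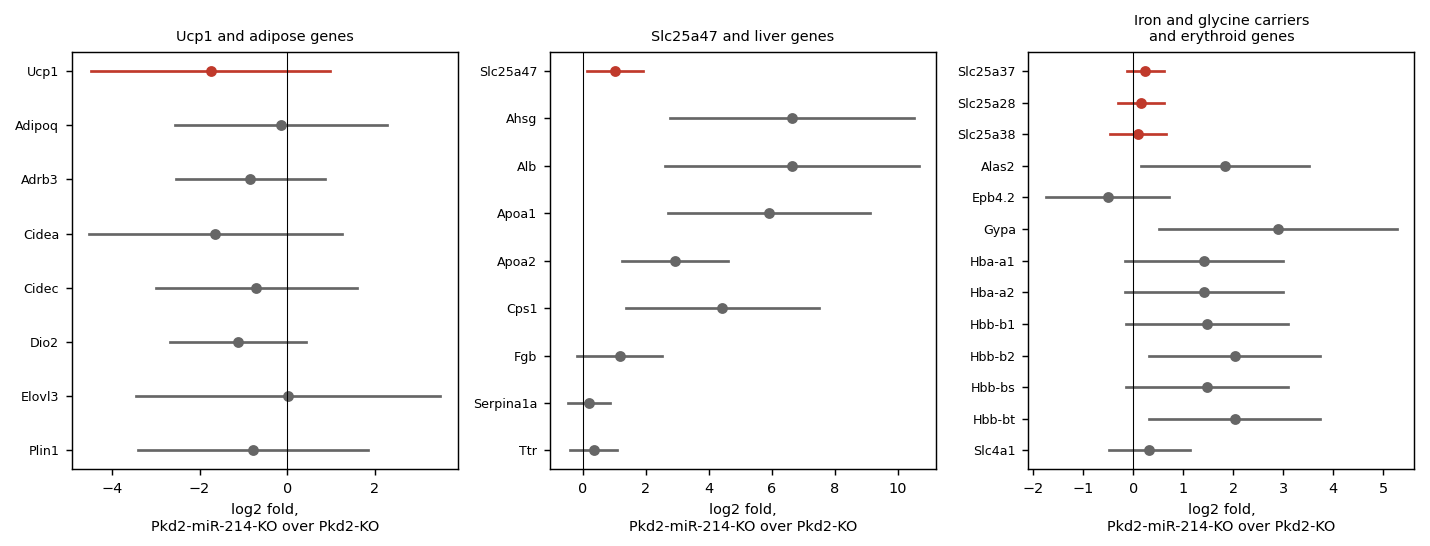
Log2 folds (x axes, Pkd2-miR-214-KO over Pkd2-KO; points are the authors' deposited folds, lines approximate 95% intervals) of Ucp1 with 7 adipose markers, Slc25a47 with 8 liver markers, and 3 carriers of iron and glycine with 10 erythroid markers. Carriers are in red and markers in grey; Ucp1 lies near Cidea, Slc25a47 far below Alb, and the iron and glycine carriers near 0 beside globin genes at 1.42 to 2.03.

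Iron and glycine carriers, which supply heme synthesis, showed small positive folds. Slc25a37, the mitoferrin of red cell precursors, had 0.24 ± 0.19 (interval -0.14 to 0.61), Slc25a28, the mitoferrin of other tissues, 0.15 ± 0.24, and Slc25a38, the glycine carrier of the erythroid lineage, 0.10 ± 0.28 in the authors' deposited table. Erythroid markers had larger folds: 9 of 10 were positive, with a median of 1.47. Of these 10, 4 had an unadjusted p under 0.05, beside 3.10% of all genes called higher. Alas2, the erythroid enzyme that takes up that glycine, had 1.84 ± 0.86, and Hbb-bt, a beta globin gene, 2.03 ± 0.87 in the authors' deposited table. Hbb-b2 carries the same values as Hbb-bt, Hbb-b1 nearly the same as Hbb-bs, and Hba-a1 nearly the same as Hba-a2. These markers are therefore not independent, and both Hbb-bt and Hbb-b2 are among the 4 with an unadjusted p under 0.05. The part of blood in the carriers' values was not tested.

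The 4 carriers of organic acids all had negative folds, none of them past the test. Slc25a1, which exports citrate for fatty acid synthesis, had -0.33 ± 0.25 (interval -0.83 to 0.17, unadjusted p = 0.194), and Slc25a11, the oxoglutarate carrier of the malate-aspartate shuttle, -0.16 ± 0.26 in the authors' deposited table. Slc25a10, the dicarboxylate carrier, had -0.09 ± 0.28 and Slc25a21, the oxodicarboxylate carrier, -0.22 ± 0.34 there. The median of these 4 was -0.19. Aspartate and glutamate carriers were split, with -0.10 ± 0.20 for Slc25a12 and 0.13 ± 0.26 for Slc25a13, the calcium-regulated pair that sends aspartate to the cytosol, in the authors' deposited table. The glutamate carriers Slc25a22 and Slc25a18 had -0.26 ± 0.25 and 0.03 ± 1.37, the second at a mean log2 CPM of -3.67.

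The glutathione carriers had opposite signs. Slc25a39, which brings glutathione into the matrix, had -0.32 ± 0.25 (interval -0.80 to 0.17) at a mean log2 CPM of 7.95, and its paralog Slc25a40 had 0.25 ± 0.30 at 3.97 in the authors' deposited table. Whether they differ from each other was not tested.

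Cofactor and nucleotide carriers held 6 positive and 3 negative folds with a median of 0.02. Slc25a26, which imports S-adenosylmethionine for methylation in the matrix, had -0.31 ± 0.31 and the smallest p of this group, 0.320, in the authors' deposited table. Slc25a51, the importer of NAD, had 0.08 ± 0.22 there. Slc25a16 and Slc25a42, which serve coenzyme A, had 0.12 ± 0.21 and -0.13 ± 0.26 in the authors' deposited table. The pyrimidine nucleotide carriers Slc25a33 and Slc25a36 had 0.29 ± 0.50 and 0.00 ± 0.19, the first with an SE at the 98.4 percentile among genes at a similar level. Slc25a32, which carries folate and flavin, had 0.16 ± 0.28, and Slc25a17, the peroxisomal member, 0.02 ± 0.24 in that table.

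Members without a settled substrate, and the outer membrane protein Slc25a46, were split 3 and 3. Slc25a34 had -0.34 ± 0.28 (unadjusted p = 0.223), Slc25a46, which acts in mitochondrial fission, 0.19 ± 0.20, and Slc25a35 -0.10 ± 0.24 in the authors' deposited table. Slc25a54, the member with the lowest mean log2 CPM (-4.19), had 1.72 ± 1.49.

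Carriers encoded on the X chromosome were looked at separately because of the fold of Xist. There are 4, and in the authors' deposited table Slc25a5 had 0.03 ± 0.38, Slc25a14 0.07 ± 0.33, Slc25a43 -0.30 ± 0.43 and Slc25a53 0.43 ± 0.45. Their median was 0.05, and 0 had an unadjusted p under 0.05 in the authors' test, beside 4.82% of all genes. With only 4 genes such a count says little. The Y-linked genes Ddx3y, Kdm5d, Uty and Eif2s3y had -0.23 ± 1.54, -0.66 ± 1.40, -0.39 ± 1.66 and -0.14 ± 1.63 in that table. The SE of these Y-linked genes lay between the 99.8 and 99.96 percentile among genes at a similar level. The part of sex in the carriers' values was not tested.

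Several members lie side by side in the genome, and 5 pairs are less than 100 kb apart. The closest is Slc25a29 and Slc25a47 on chromosome 12, with folds of 0.53 and 1.01. Slc25a54 and Slc25a24 on chromosome 3 had 1.72 and 0.17, and Ucp3 and Ucp2 on chromosome 7 -0.44 and -0.23 in the authors' deposited table. The remaining pairs, Slc25a41 with Slc25a23 on chromosome 17 (0.79 and -0.23) and Slc25a43 with Slc25a5 on the X chromosome (-0.30 and 0.03), had opposite signs.

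**Figure D3:**
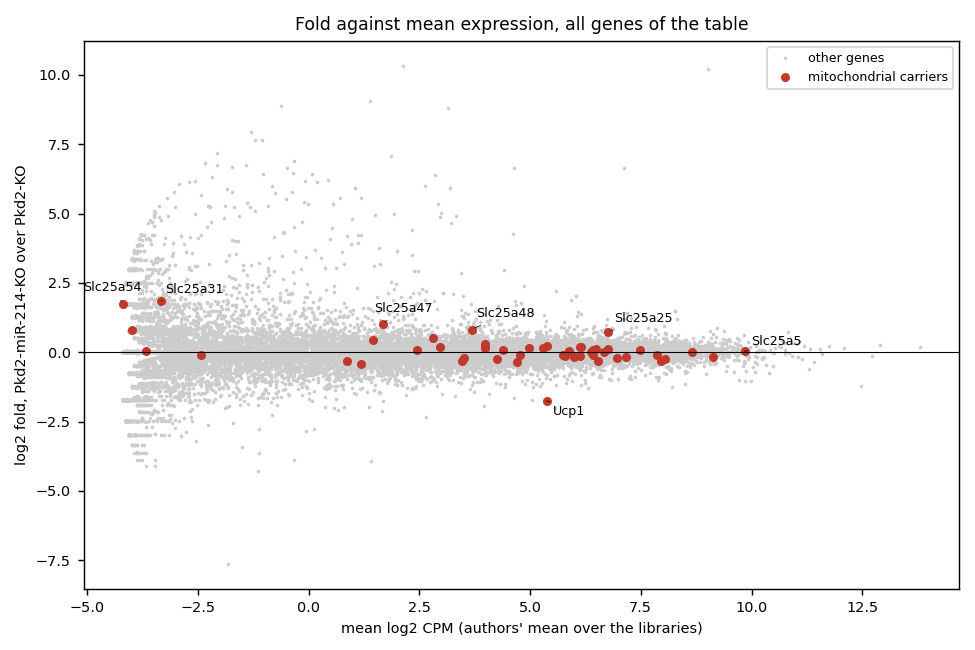
Log2 fold (y axis, Pkd2-miR-214-KO over Pkd2-KO) against mean log2 CPM (x axis) for the 20138 genes of the authors' deposited table, with the 50 carriers in red. Above a mean log2 CPM of 3 the carriers sit in the narrow middle of the cloud apart from Ucp1, Slc25a25 and Slc25a48, and the 5 members under 0 lie where single genes scatter widely.

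Levels between carriers can be compared only per length, here as mean log2 CPM per kilobase of annotated exon over both genotypes. The order was led by the carriers of oxidative phosphorylation, Slc25a5 at 9.53, Slc25a3 at 8.17 and Slc25a4 at 7.72. After them came Slc25a39 at 7.20, the dicarboxylate and oxoglutarate carriers Slc25a10 at 6.86 and Slc25a11 at 6.39, and Ucp2 at 6.06. Ucp1 stood at place 17 of 50 with 4.66, next to Slc25a25 at 4.71. Slc25a48 at 1.92 and Slc25a47 at 0.74 were in the lower part, and the lowest were Slc25a41, Slc25a31, Slc25a18 and Slc25a54, between -4.40 and -4.93. The spread over animals of these levels cannot be given, so neighbours in the order are not shown to differ.

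**Figure D4:**
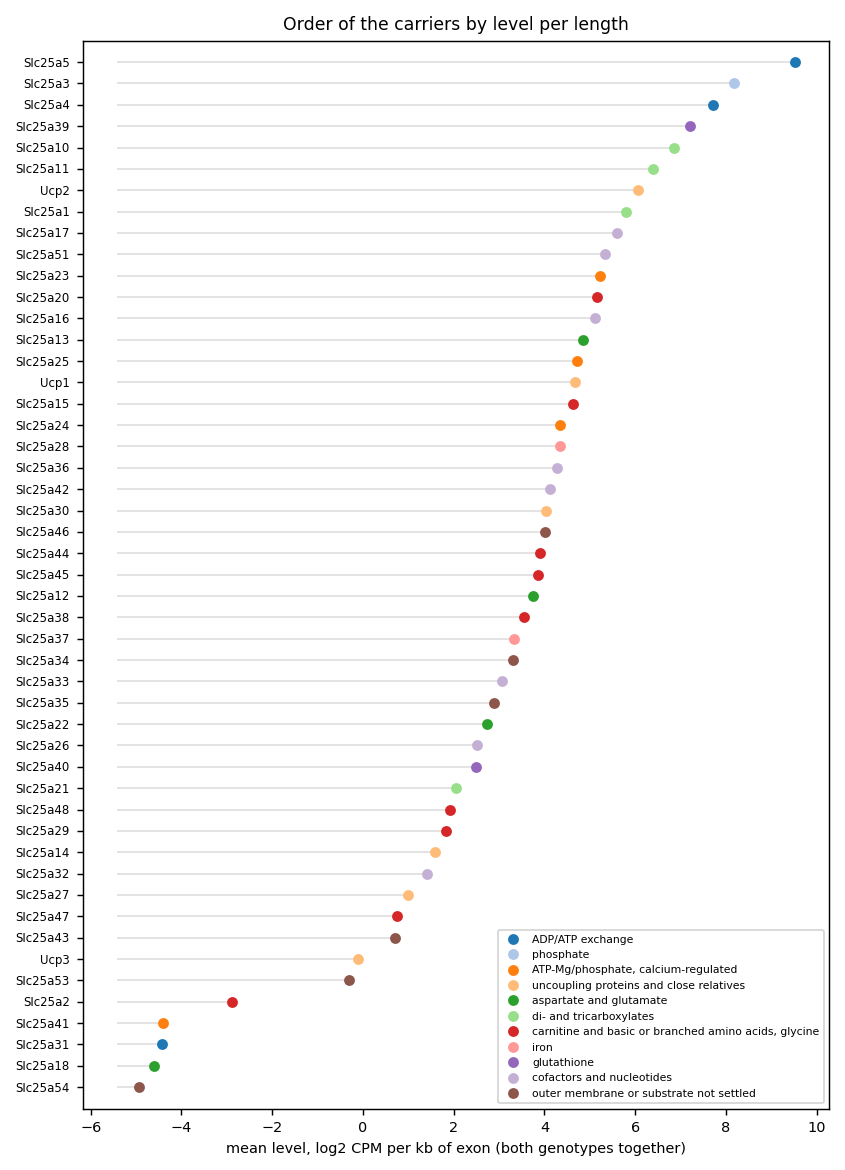
Mean level of 49 of the 50 carriers over both genotypes (x axis, log2 CPM per kilobase of exon), ordered on the y axis and coloured by substrate group. Slc25a5, Slc25a3 and Slc25a4 lead with 9.53, 8.17 and 7.72, Ucp1 stands in the middle at 4.66, and 5 members lie under -2.

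Because miR-214 is what the genotypes differ in, the longest annotated 3' untranslated region of each member was searched for the 7 bases that pair with its seed, bases 2 to 8. Both mature forms of the hairpin are shown, 5' to 3', with the seed in capitals.
mmu-miR-214-3p: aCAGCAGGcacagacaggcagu
mmu-miR-214-5p: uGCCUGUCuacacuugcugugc
Of the 49 members with such a region, 12 (24.5%) held the site CCTGCTG of miR-214-3p, beside 21.3% of 16888 genes, and 5 (10.2%) held the site GACAGGC of miR-214-5p, beside 9.40%. Regions of the members were slightly longer, with a median of 1189 bases beside 1041. Of the 3 members with an unadjusted p under 0.05, Slc25a25 and Slc25a48 held a miR-214-3p site and Slc25a47 a miR-214-5p site. The share of members or of all genes with a site of either form was not counted, so this is a description only. The sites of these 3 members were chosen for display after the folds were seen. They are given with the pairing bases in capitals, followed by one of the 3 sites of Slc25a35, the member with the most, for contrast.
Slc25a25, first site: agagtgaccttgCCTGCTGcccacact
Slc25a25, second site: ctcaatgagtggCCTGCTGgccacttg
Slc25a48: ccaagcctagatCCTGCTGgctgaaaa
Slc25a47: tgtccctttagaGACAGGCtagggacc
Slc25a35: agggccaagagaCCTGCTGtgacacct
On the assembly of mm10 the capitals lie on chromosome 2 at 32414931 to 32414937 and at 32414649 to 32414655 for Slc25a25, on chromosome 13 at 56473500 to 56473506 for Slc25a48, on chromosome 12 at 108856609 to 108856615 for Slc25a47 and on chromosome 11 at 68972729 to 68972735 for Slc25a35.

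Members with a miR-214-3p site were not higher as a set. Their log2 folds ran from -0.32 (Slc25a39) to 0.82 (Slc25a48), 6 positive and 6 negative, with a median of -0.03, and the 37 members without one had a median of 0.03. Over all genes the medians were -0.01 with a site and 0.00 without. Slc25a35, with 3 copies, had -0.10 ± 0.24 in the authors' deposited table. None of the 15 sites in the members was followed by an A, the base that strengthens such a site, while 19.2% of the 4816 sites over all genes were. The 5 members with a miR-214-5p site had folds from -0.09 (Slc25a10) to 1.01 (Slc25a47) and a median of 0.07. The 44 members without such a site had a median of 0.03. For this form the medians over all genes were -0.02 with a site and 0 without. Of its 5 sites in the members 2 were followed by an A, beside 38.3% of the 1785 sites over all genes. A match of these letters is a description and does not show that the microRNA binds there.

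Other genes of mitochondrial transport also had folds near 0. Of 45 measured partners 1 had an unadjusted p under 0.05, and it was lower. Over all genes 1.71% were called lower and 4.82% in either direction. The partners' folds split into 22 above and 23 below 0 around a median of -0.02, and 0 passed after adjustment in the authors' edgeR test. The partner called lower was Cpt1b, the muscle form of the enzyme that makes acylcarnitines for Slc25a20. Cpt1b had -0.87 ± 0.31 (unadjusted p = 0.00561, adjusted p = 0.463) in the authors' deposited table. All 5 genes of the carnitine shuttle were negative, including Cpt2 (-0.34 ± 0.22), which acts in the matrix, and Cpt1a (-0.21 ± 0.26), the form of liver and kidney. The pyruvate carrier genes Mpc1 (0.13 ± 0.29) and Mpc2 (0.01 ± 0.35), the porin genes Vdac1 (0.02 ± 0.28), Vdac2 (0.05 ± 0.25) and Vdac3 (0.09 ± 0.25), and the biogenesis regulator Ppargc1a (-0.14 ± 0.27) lay near 0 in that table. The 4 enzyme genes of the malate-aspartate shuttle were all slightly negative, from -0.24 for Mdh2 to -0.03 for Got1. Gpd1, the cytosolic enzyme of the glycerol phosphate shuttle and a gene also high in fat, had -0.71 ± 0.44 in the authors' deposited table.

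**Figure D5:**
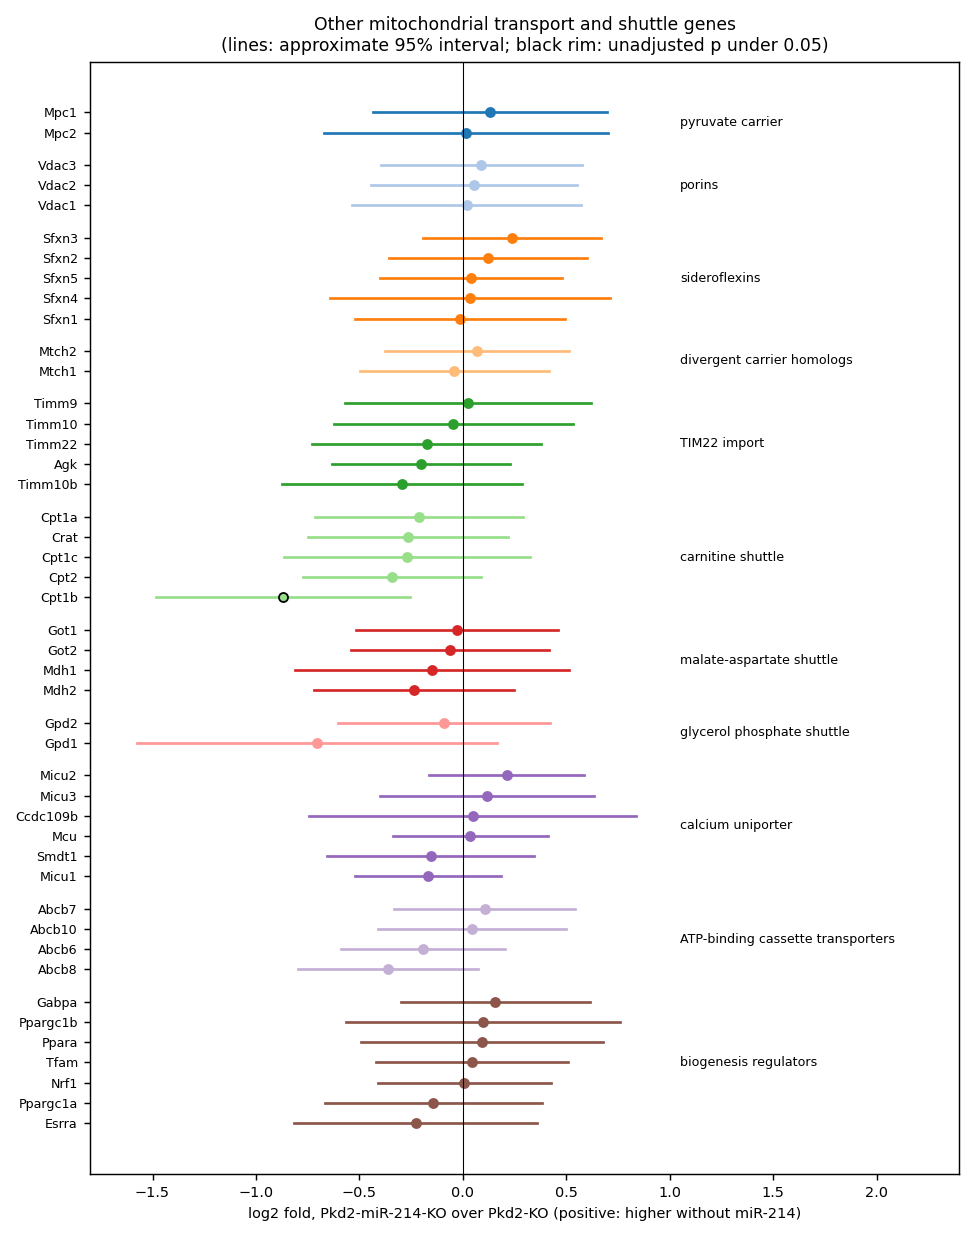
Log2 folds (x axis, Pkd2-miR-214-KO over Pkd2-KO; points are the authors' deposited folds, lines approximate 95% intervals) of 45 other mitochondrial transport and shuttle genes, grouped on the y axis by role. The only point with a black rim, for an unadjusted p under 0.05, is Cpt1b at -0.87. Of the 45 intervals 43 (95.6%) lie between -1 and 1. This stands beside 57.5% of all genes and 91.3% of those with a mean log2 CPM of at least 3.

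Markers of the proximal tubule and the thick ascending limb had more negative medians than the carriers, while those of the distal convoluted tubule (0.14) and the collecting duct (0.13) did not. The distal list held only 4 genes. Slc12a3 had -0.67 ± 0.45, Calb1 0.29 ± 0.50 and Trpm6 0.44 ± 0.27 in the authors' deposited table. Pvalb had a fold of 0 with no SE. Markers of the proximal tubule, the segment richest in mitochondria, had a median log2 fold of -0.65 with 12 of 12 negative. Those of the thick ascending limb had -0.58 with 7 of 7 negative. In each of these 2 lists 3 markers had an unadjusted p under 0.05, beside 1.71% of all genes called lower. The 3 proximal markers were Slc22a12, the urate transporter (-1.24 ± 0.38), Slc34a3, a phosphate transporter (-1.16 ± 0.42), and Gatm, an enzyme of creatine synthesis (-0.99 ± 0.47) in the authors' deposited table. Beside these medians stand 0.03 for all carriers and 0.01 for the 38 with a mean log2 CPM of at least 3. The difference between the markers and the carriers was not tested.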

How the data were processed

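The authors sequenced RNA from whole frozen kidneys with a stranded kit, per the labels' protocols. TopHat2 2.0.12, edgeR and mm10 are listed in the submitters' processing notes, without settings. One table of 20138 genes was used. Per the file headers it holds the authors' log2 fold, mean log2 CPM, likelihood ratio (a score on 1 degree of freedom), p-value and adjusted p-value. The deposited p-values equalled the chi-square tail with a largest difference of 6.25e-15, and the deposited adjusted p-values the Benjamini-Hochberg adjustment with a largest difference of 5.1e-14. The fold's direction is not stated and was read from Mir214, which is then no check of the labels. Neither filters, normalization factors nor the use of strand were stated in these sources. The labels call the animals biological replicates and give no litter or sex.

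No new test per gene was made. The approximate SE is poor at low counts. The SE and adjustment steps were run on simulated folds, which checks only that the code computes them as described. The simulated likelihood ratios were built from the known SE, so this could not test how good the approximate SE is. Positions, exon lengths (merged basic exons) and 3' untranslated regions came from GENCODE M21, on the assembly of mm10, and matched all 50 members by symbol. MicroRNA sequences are from RefSeq on GRCm38.p6. A percentile of SE is taken among genes within 0.5 of the same mean log2 CPM.

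The members, substrate groups, partner genes and markers were chosen with earlier results of these data known. Named genes were the 12 members with the smallest p, the 5 highest and 3 lowest by mean log2 CPM, those on the X chromosome, the smallest p of each substrate group and, in each companion list, the smallest p-values and defining markers; other members are given by fold. One member enters every count and is not reported here by name. Marker lists of distal convoluted tubule, collecting duct, podocyte, muscle, adrenal and macrophage are given at the end. Alternatives were a minimum level, a t tail, other adjustments, centring and weighting. Computation used scipy 1.17.1, numpy 2.4.6 and pandas 2.3.3 under Python 3.11.15, and figures matplotlib 3.10.9.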

Additional observations from a re-analysis of the deposited data

How the results depend on the processing

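The 3 members with an unadjusted p under 0.05 became 0 with the t tail on 4 degrees of freedom. That tail asks more of each likelihood ratio than the chi-square tail does. With a minimum mean log2 CPM of 0 or 3 the number was 3 or 2. At the minimum of 3 this was 2 of 38 members, beside 217 of 11406 genes called higher. The number with an adjusted p under 0.05 was 0 with every adjustment tried, including Bonferroni and a threshold of 0.25. Shares over all genes were not counted for the t tail, the minimum of 0 or these other adjustments. The median log2 fold of the members ran from 0.01 to 0.03 over a minimum mean log2 CPM, weighting, centring and, chosen after seeing the data, leaving out the 4 members with an SE above 1. Centring on all genes changed nothing, since their median fold is 0. Centring each of 22 named members on genes of similar level moved them by at most 0.03 and turned 1 sign, that of Slc25a4, to -0.0094 from 0.0087. Leaving out single animals was not run, because it needs values per library. No paired analysis was possible because the labels give the animals no shared numbers and the table has no values per animal.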

Other observations

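Other marker lists of the same table give the surroundings in which the carriers were measured. Over all genes 3.10% were called higher and 1.71% lower at an unadjusted p under 0.05. Adrenal genes were positive in 6 of 6 cases with a median log2 fold of 2.24, 2 of them with an unadjusted p under 0.05. These were Dbh, the enzyme that makes noradrenaline (5.27 ± 1.31, adjusted p = 0.0475), and Th, the first enzyme of that pathway (6.05 ± 1.63), in the authors' deposited table. Their mean log2 CPM was only -2.26 and -2.93, low levels at which the approximate SE is poor. Skeletal and smooth muscle genes, the tissue of Ucp3 and of Cpt1b, had 4 positive and 3 negative folds with a median of 0.05. Only 1 had an unadjusted p under 0.05, the actin gene Acta1 (1.30 ± 0.59, mean log2 CPM -1.09) in the authors' deposited table. Macrophage markers, from cells in which Ucp2 is abundant, had 6 positive and 2 negative folds with a median of 0.17. Of these, 2 had an unadjusted p under 0.05, Cd163, a scavenger receptor for hemoglobin (1.76 ± 0.35, adjusted p = 0.00126), and Mrc1, the mannose receptor (0.51 ± 0.24, unadjusted p = 0.0353), and Csf1r, the receptor that maintains these cells, stood at -0.03 ± 0.22 in the authors' deposited table. For comparison, markers of the distal convoluted tubule, collecting duct and podocyte had medians of 0.14, 0.13 and -0.02, with 0 genes at an unadjusted p under 0.05 in the authors' edgeR test.

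The carriers differed widely in the approximate SE of their folds. Set among genes at a similar level, the SE of Ucp1 was at the 99.9 percentile, followed by 98.4 for Slc25a33, 94.2 for Slc25a25, 92.5 for Slc25a48 and 92.1 for Ucp3. At the other end Slc25a24 lay at the 6.80 percentile, Slc25a37 at 6.86 and Slc25a36 at 11.4. Slc25a25 and Slc25a48, called without adjustment, are therefore among the members with a large approximate SE for their level.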
